A study of Homo sapiens with 6 samples.

Results

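The transcripts of 10 enzymes that make and convert sphingolipids were examined in bladder cancer cells with and without overexpression of RNF112, a RING-finger E3 ubiquitin ligase. The enzymes were chosen by gene symbol: SPTLC1, SPTLC2 and KDSR at the start of the pathway, CERS2, CERS5, CERS6 and DEGS1 at the making of ceramide, and SGMS1, UGCG and SPHK1 at its use. All 10 were among the 23152 genes counted, and all 10 were tested with the 14467 genes kept by edgeR's low-count filter. RNA came from T24, an established line from a human bladder carcinoma, grown in RPMI medium with fetal bovine serum. The vector group (n = 3) carried the empty vector, and the oeRNF112 group (n = 3) overexpressed RNF112. The methods describe a Flag-tagged RNF112 plasmid for transient transfection and a lentivirus for stable lines, and which of them was used for sequencing was not given in the sources used here. The deposited treatment protocol names siRNA, which neither group label does.

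The labels were checked with RNF112 itself. Its counts were 27, 19 and 24 under vector against 29753, 36963 and 31712 under oeRNF112, a log2 fold change of 10.37 (SE 0.177, adjusted p = 7.4e-10). These counts may include reads of the introduced construct. Each sample held between 40029547 and 41259569 counts. At this depth the limit that a count of 0 allows, 3 counts, lies between 0.0727 and 0.0749 CPM (counts scaled to the size of the library), which covers counting error only. The epithelial keratin transcript KRT18 was abundant, with 719, 680 and 833 RPKM in vector and 565, 591 and 517 RPKM in oeRNF112 (RPKM, read counts per gene length and library size). KRT18 fell by 0.51 on the log2 scale (adjusted p = 0.013). The urothelial and epithelial markers KRT20, CDH1, UPK2 and UPK3A had at most 7 counts in every sample. The mesenchymal marker VIM was more abundant still, with at least 1592 RPKM in each sample.

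Sphingolipids are membrane lipids built on a long-chain base. Serine palmitoyltransferase joins serine to a fatty acyl-CoA, the product is reduced, acylated by a ceramide synthase and desaturated, and the resulting ceramide is the branch point of the pathway. Ceramide can receive a phosphocholine head group to become sphingomyelin or a glucose to become glucosylceramide, or it can be cleaved to sphingosine, which is phosphorylated to the signalling lipid sphingosine-1-phosphate (S1P).

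None of the 10 enzymes passed the test between oeRNF112 and vector. The count was 0 of 10 at an adjusted p under 0.05 (edgeR's quasi-likelihood test, Benjamini-Hochberg adjustment over all genes tested), where 18.1% of all genes tested passed. The adjusted p-values lay between 0.0562 for UGCG and 0.855 for SPTLC1. An unadjusted p under 0.05 was reached by UGCG, KDSR and CERS5, 3 of 10 against 33.1% of all genes. DESeq2 called 1 of the 10 (UGCG), against 19.5% of all genes, and limma on log2(RPKM + 1) called those 3, against 17.5% of all genes. The fitted log2 fold changes were small, from -0.13 for SPTLC2 to 0.27 for UGCG. Their median was 0.09, and the median of all genes tested was 0.00 with quartiles of -0.20 and 0.24. The values of the groups, in CPM also scaled by edgeR's TMM factors as all CPM below, did not overlap for 2 of the 10, KDSR and UGCG, both higher in oeRNF112. Of all genes tested, 36.8% did not overlap, and 18.9% of all genes tested were higher without overlap. A p that misses the threshold does not show that a transcript was unchanged, and the intervals below give the changes that the spread allows. Nothing in the labels says whether the samples were separate cultures, so p-values measure only the spread between these samples.

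**Figure D1:**
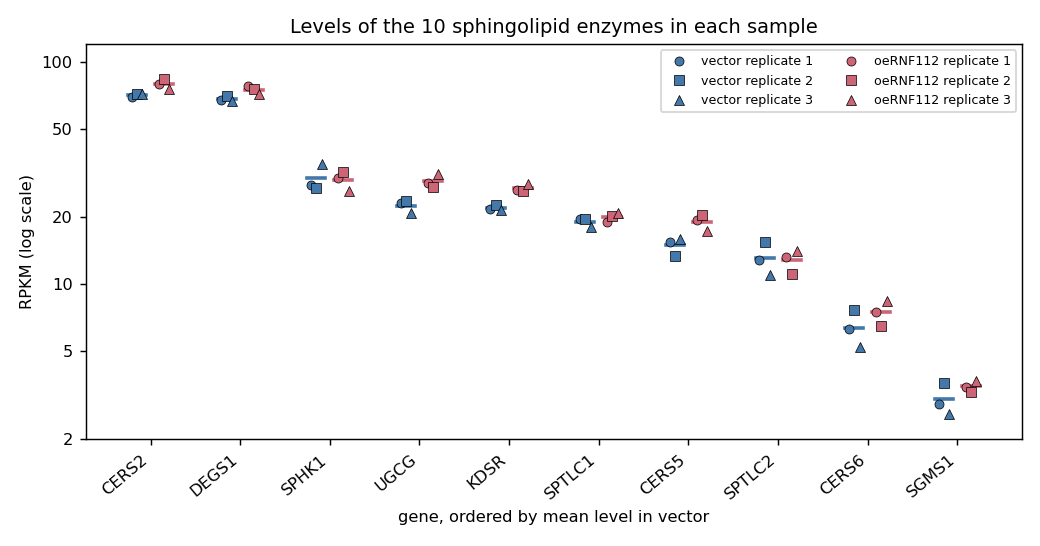
RPKM (log scale) of each of the 10 enzymes in each sample, with genes ordered by the vector mean. Points are samples, their shape gives the replicate number, and bars are group means of 3 samples. CERS2 and DEGS1 lie highest, SGMS1 lies lowest, and for KDSR, UGCG, CERS2, CERS5 and DEGS1 all oeRNF112 points lie above all vector points on this scale, which is without TMM factors.

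Levels between genes were compared per length, in RPKM. CERS2 was the most abundant, with 69.4, 71.3 and 71.4 RPKM in the vector samples, and DEGS1 overlapped with it at 66.9, 70.0 and 66.2 RPKM. Compared within each sample of both groups, CERS2 was higher than DEGS1. SPHK1 followed at 27.1 to 34.8 RPKM, then UGCG at 20.8 to 23.6 and KDSR at 21.6 to 22.6, which overlapped. SPTLC1 lay at 18.0 to 19.7 RPKM. CERS5 at 13.3 to 16.0 and SPTLC2 at 11 to 15.5 RPKM overlapped, and CERS6 at 5.21 to 7.61 and SGMS1 at 2.59 to 3.60 RPKM were lowest. Every other neighbouring pair was apart in the vector samples. The mean levels ranked the 10 enzymes in the same order in oeRNF112, but there SPHK1 (26.3 to 31.9 RPKM) overlapped with UGCG (27.3 to 31.2) and KDSR (26.3 to 28.2), SPTLC1 (19.1 to 20.9) with CERS5 (17.3 to 20.5), and CERS2 (75.6 to 83.3) with DEGS1 (71.7 to 77.4). RPKM are scaled by library totals and not by TMM factors, and on that scale 5 of the 10 enzymes did not overlap between the groups and were higher in oeRNF112. They were KDSR, UGCG, CERS2, CERS5 and DEGS1, and 26.1% of all genes tested were higher without overlap on that scale. Together the 10 enzymes took 0.101%, 0.106% and 0.0979% of all counts in vector and 0.115%, 0.113% and 0.116% in oeRNF112. These shares are likewise without TMM factors. With library totals the median log2 fold change was 0.181 for the 10 enzymes and 0.0962 for all genes tested.

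SPTLC1 and SPTLC2 encode subunits of serine palmitoyltransferase, the rate-limiting step of the pathway. SPTLC1 (chr9:92031147-92115413, minus strand, RefSeq on GRCh38.p14) had 103, 100 and 94.2 CPM in vector and 92.2, 99.6 and 99.7 CPM in oeRNF112. Its groups overlapped almost entirely, and its log2 fold change was -0.03 (95% interval -0.21 to 0.16). It lay between -0.06 without vector replicate 3 and 0.01 without vector replicate 1 or oeRNF112 replicate 1, and was -0.04 without oeRNF112 replicate 3. With library totals it was 0.07, a scaling that moved the median of all genes from 0.00 to 0.10. SPTLC2 (chr14:77505997-77616637, minus strand) had 113, 133 and 97.1 CPM in vector and 108, 92.4 and 114 CPM in oeRNF112. Vector replicate 2 was the highest and oeRNF112 replicate 2 the lowest, and the log2 fold change was -0.13 (-0.40 to 0.15, adjusted p = 0.516). It rested on single samples, at -0.01 without vector replicate 2, -0.03 without oeRNF112 replicate 2 and -0.23 without vector replicate 3. SPTLC2 became a call, at -0.26 (adjusted p = 0.0176), once a trend with gene length, described below, was removed. Within a sample, the log2 ratio of SPTLC1 to SPTLC2 RPKM was 0.62, 0.35 and 0.71 in vector and 0.53, 0.87 and 0.57 in oeRNF112, and the groups overlapped.

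KDSR encodes 3-ketodihydrosphingosine reductase, which reduces the product of serine palmitoyltransferase. It lies at chr18:63327726-63367206 on the minus strand. It had 116, 118 and 116 CPM in vector and 132, 134 and 138 CPM in oeRNF112. The lowest oeRNF112 sample lay above the highest vector sample, and the replicates were close, with a mean of 117 ± 0.837 CPM in vector and 135 ± 3.17 CPM in oeRNF112 (SD, n = 3). The fold was 1.15 (95% interval 1.03 to 1.30), with an unadjusted p of 0.0223 and an adjusted p of 0.0892 in edgeR's test. With library totals in place of TMM factors the log2 fold change was 0.30 and the adjusted p 0.0254, where 18.5% of all genes passed.

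UGCG encodes glucosylceramide synthase, the first step toward most glycosphingolipids, at chr9:111896814-111935369 on the plus strand. It had 122, 120 and 109 CPM in vector and 138, 136 and 150 CPM in oeRNF112. All oeRNF112 values lay above all vector values. The fold was 1.21 (1.05 to 1.38), with an unadjusted p of 0.0109 and an adjusted p of 0.0562. UGCG passed the threshold with library totals (log2 fold change 0.36, adjusted p = 0.0225) in edgeR, and with DESeq2 (0.26, adjusted p = 0.0474 and 19.5% of all genes past the threshold). With TMM factors and 1 sample left out in turn, none of the 10 enzymes passed in any of the 6 fits, in which 7.18%, 23% and 13.1% of all genes passed without vector replicates 1, 2 and 3, and 8.59%, 15.9% and 9.84% without oeRNF112 replicates 1, 2 and 3.

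The ceramide synthases attach acyl chains of differing length to the long-chain base: CERS2 prefers very long chains, and CERS5 and CERS6 prefer chains about as long as palmitate. CERS2 (chr1:150965186-150974835) had 189, 188 and 194 CPM in vector and 199, 214 and 188 CPM in oeRNF112. The groups overlapped through oeRNF112 replicate 3, and the log2 fold change of 0.07 (-0.11 to 0.26) was 0.04 without oeRNF112 replicate 2 and 0.12 without oeRNF112 replicate 3. CERS5 (chr12:50129289-50167369, minus strand) had 57.3, 47.7 and 59.4 CPM in vector and 66.5, 71.7 and 58.6 CPM in oeRNF112. One oeRNF112 sample fell below 1 vector sample, the fold was 1.20 (1.01 to 1.43), and the adjusted p was 0.14. The log2 fold change of 0.26 was 0.17 without vector replicate 2. CERS5 passed with library totals (log2 fold change 0.355, adjusted p = 0.0436). CERS6 (chr2:168456272-168775134, plus strand) had 71.2, 83.6 and 59.1 CPM in vector and 78.6, 69.4 and 86.8 CPM in oeRNF112. Its groups overlapped, and its log2 fold change was 0.13 (-0.16 to 0.43). It was 0.02 without vector replicate 3, 0.05 without oeRNF112 replicate 3, 0.26 without vector replicate 2 and 0.23 without oeRNF112 replicate 2. With the length trend removed it was -0.01, where the median of all genes was -0.06.

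Of the summed RPKM of the 6 ceramide synthase genes, CERS2 held 73.4%, 74.9% and 74.5% in vector, against 71.9%, 72.4% and 72.2% in oeRNF112. CERS2 was thus the main ceramide synthase transcript in every sample, and its share was lower by 2.08 percentage points in oeRNF112 without overlap between the groups (74.3 ± 0.732% against 72.2 ± 0.280%, SD, n = 3). The exact two-sided permutation test gave p = 0.1, the smallest that 3 against 3 samples allow, and 0.35 after Benjamini-Hochberg adjustment over the 7 shares and ratios tested. CERS5 held 16.4%, 13.9% and 16.7% in vector and 17.6%, 17.8% and 16.6% in oeRNF112, and the groups overlapped (exact permutation p = 0.2, adjusted 0.47). The share of CERS6 ranged from 5.44% to 8.01% over the 6 samples, with overlapping groups. CERS4 held between 2.75% and 3.61%, CERS1 at most 0.540%, and CERS3 had at most 1 count in any sample.

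**Figure D2:**
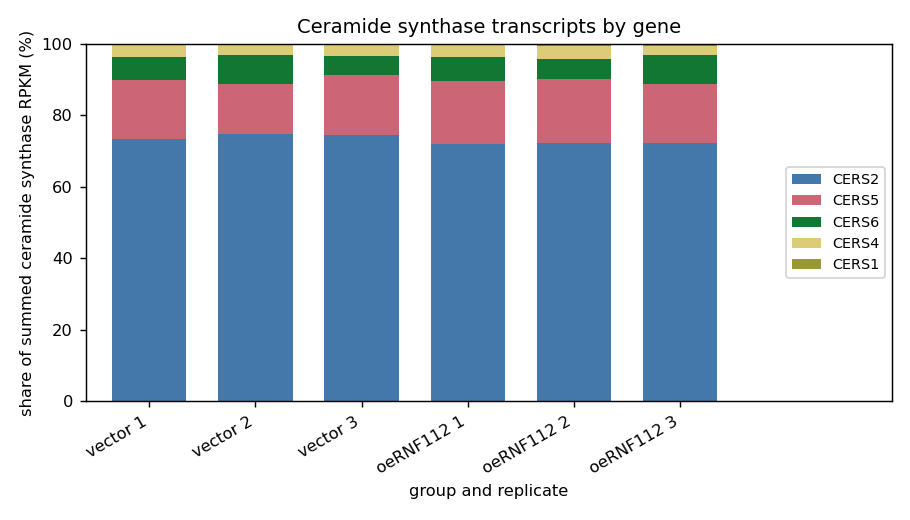
Share of the summed RPKM of CERS1 to CERS6 held by each gene (percent, stacked from 0 to 100) in each of the 6 samples. CERS2 takes between 71.9% and 74.9% of every bar, and CERS5 takes the next share.

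DEGS1 encodes the dihydroceramide desaturase that completes ceramide (chr1:224183240-224193441, plus strand). It had 167, 170 and 166 CPM in vector and 179, 178 and 164 CPM in oeRNF112. Its oeRNF112 values lay on both sides of the vector values, with a log2 fold change of 0.05 (-0.13 to 0.23) that was 0.03 without oeRNF112 replicate 1 and 0.09 without oeRNF112 replicate 3. SGMS1, sphingomyelin synthase 1 (chr10:50305600-50625184, minus strand), had 32.6, 39.2 and 29.1 CPM in vector and 35.9, 34.8 and 37.7 CPM in oeRNF112. All oeRNF112 values fell inside the vector range, and its log2 fold change was 0.10 (-0.16 to 0.36). It was 0.01 without vector replicate 3 and 0.23 without vector replicate 2. With the length trend removed it was -0.03, where the median of all genes was -0.06. The log2 ratio of SGMS1 to its paralogue SGMS2 was between -0.00 and 0.47 in RPKM over the 6 samples, so neither transcript dominated. UGCG and SGMS1 use the same substrate, ceramide, and the linear ratio of their RPKM was 8, 6.55 and 8.01 in vector and 8.21, 8.35 and 8.49 in oeRNF112. The groups did not overlap, and on the log2 scale the means differed by 0.16 (exact permutation p = 0.1, adjusted 0.35). Without vector replicate 2 the difference was 0.06.

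SPHK1 encodes sphingosine kinase 1, which makes S1P (chr17:76383204-76387855, plus strand). It had 79.2, 74.7 and 99.0 CPM in vector and 78.8, 85.6 and 68.1 CPM in oeRNF112. Vector replicate 3 stood highest and oeRNF112 replicate 3 lowest. The log2 fold change of -0.12 (-0.40 to 0.16) turned to 0.01 without vector replicate 3, and was -0.04 without oeRNF112 replicate 3, -0.19 without oeRNF112 replicate 2 and -0.20 without vector replicate 2. SPHK1 was between 19.4 and 26.1 times as abundant as SPHK2 in RPKM in the 6 samples, and the groups overlapped.

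Counting on strand was not given in the sources used here, so reads of genes on the opposite strand that share exons cannot be told apart from those of the enzymes if strand was ignored. SETDB1 shares 290 exonic bases with CERS2 and had 808 to 1032 counts, and PRPSAP1 shares 59 bases with SPHK1 and had 3163 to 3761 counts. AL590133.2 shares 516 exonic bases with CERS2 and AC036176.1 shares 183 with KDSR, and no counts were matched to either name. The antisense RNAs CERS6-AS1 (4 to 17 counts) and SGMS1-AS1 (29 to 72 counts) were low.

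The spread among replicates was unequal across the 10 enzymes. Vector replicates 2 and 3 and oeRNF112 replicates 3 and 2 had the longest and shortest mean gene length per count of their groups, 4686.2 against 4183.2 bases and 4809.9 against 4399.7 bases, and were compared for that reason after the values were seen. This choice of pairs favors higher values of long genes in the first sample of each pair, so the ratios are a description. The longest genes were higher in vector replicate 2 than in vector replicate 3, by 1.41 times for CERS6 (10859 bases), 1.35 times for SGMS1 (10763 bases) and 1.37 times for SPTLC2 (8466 bases). The same ratio was 0.755 for SPHK1 (2720 bases) and 0.803 for CERS5 (3547 bases). In oeRNF112, replicate 3 over replicate 2 gave 1.25 for CERS6, 1.08 for SGMS1, 1.23 for SPTLC2, 0.796 for SPHK1 and 0.817 for CERS5. KDSR, UGCG and SPTLC1, of 5008 to 5143 bases, stayed between 1 and 1.10 in both groups. For CERS6, SGMS1, SPTLC2, SPHK1 and CERS5 these ratios inside a group were farther from 0 on the log2 scale than the fitted log2 fold change between the groups. CERS2 and DEGS1, the shortest of the 10 with SPHK1, lay between 0.877 and 1.03 and did not follow gene length as SPHK1 did.

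When a smooth trend of log counts with gene length was removed in each sample, an alternative chosen after seeing the data, 32% of all genes passed the test in place of 18.1%, and SPTLC2 alone of the 10 enzymes did. Without that step, in the 3 limma fits on RPKM, KDSR, UGCG and CERS5 passed, where 17.5% of all genes passed with a pseudocount of 1, 18% with 0.1, and 18.4% with a mean RPKM of at least 1. With the length trend removed, UGCG had a log2 fold change of 0.18 (adjusted p = 0.0602), KDSR 0.12 (0.18) and CERS5 0.21 (0.108). Of all calls, 36.3% were higher in oeRNF112 with the length trend removed, 55% with the TMM factors alone and 75.4% with library totals.

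The promoters of KDSR and UGCG, whose values did not overlap between the groups, and of FA2H, the gene of the wider pathway with the largest change (below), are shown as examples of the sequences upstream of these genes. Each is the 250 bases before the first listed RefSeq start on GRCh38.p14, written 5′ to 3′ on the strand of the gene, and capitals mark the GC box GGGCGG or its reverse complement CCGCCC and, in FA2H, the CCAAT box.
KDSR promoter, chr18:63367207-63367456, minus strand: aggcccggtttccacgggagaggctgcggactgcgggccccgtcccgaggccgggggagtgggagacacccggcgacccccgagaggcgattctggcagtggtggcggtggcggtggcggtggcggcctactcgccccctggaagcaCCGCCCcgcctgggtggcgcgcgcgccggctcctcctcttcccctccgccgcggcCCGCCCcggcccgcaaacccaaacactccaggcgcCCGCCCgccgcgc
UGCG promoter, chr9:111896564-111896813, plus strand: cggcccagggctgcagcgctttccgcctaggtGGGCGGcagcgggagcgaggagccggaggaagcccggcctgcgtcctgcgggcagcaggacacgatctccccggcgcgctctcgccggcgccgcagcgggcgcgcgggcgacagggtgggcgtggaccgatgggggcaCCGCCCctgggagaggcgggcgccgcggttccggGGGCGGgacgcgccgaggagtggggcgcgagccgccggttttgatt
FA2H promoter, chr16:74774821-74775070, minus strand: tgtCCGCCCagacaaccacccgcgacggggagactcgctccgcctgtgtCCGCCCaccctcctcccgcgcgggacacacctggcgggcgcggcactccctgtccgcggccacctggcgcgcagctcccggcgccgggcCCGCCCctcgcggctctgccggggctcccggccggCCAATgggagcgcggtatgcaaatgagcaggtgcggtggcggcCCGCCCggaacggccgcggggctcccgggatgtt
The KDSR window held GC boxes 103, 48 and 13 bases before the start, and the UGCG window 218, 80 and 46 bases before it. A promoter was listed for 9 of the 10 enzymes, all but CERS2, and 9 of 9 held a GC box on either strand, as did 66.5% of the promoters of the genes tested. Over all 12 starts listed for these enzymes, 10 windows held one. Bases 26 to 45 after the first start lay in a GENCODE transcript of the gene for 6 of the 9, not for SPTLC1, SPTLC2 and SGMS1. CCAAT, searched on both strands, was in 2 of 9, SPTLC2 and CERS6, and in 34.8% of the promoters of the genes tested. The E-box CACGTG, the same letters on both strands, to which c-Myc and other factors bind, was in 0 of 9, and in 8.64% of the promoters of the genes tested. These matches describe letters in a window and nothing about the binding of a factor.

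The other genes of sphingolipid metabolism, the enzymes included, formed a list of 73 genes in 9 roles, of which 65 were tested. In this list 12 genes passed the test, 18.5% against the 18.1% of all genes. Of the 65, 7 were called higher and 5 lower in oeRNF112, against 9.97% and 8.14% of all genes tested. All 12 lay outside the 10 enzymes, where 55 genes were tested and 21.8% passed. The median log2 fold change of the 65 was 0.05. The 8 genes not tested (SPTSSB, CERS3, DEGS2, SMPD3, ST8SIA1, ACER1, MFSD2B and S1PR4) had at most 8 counts in any sample.

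**Figure D3:**
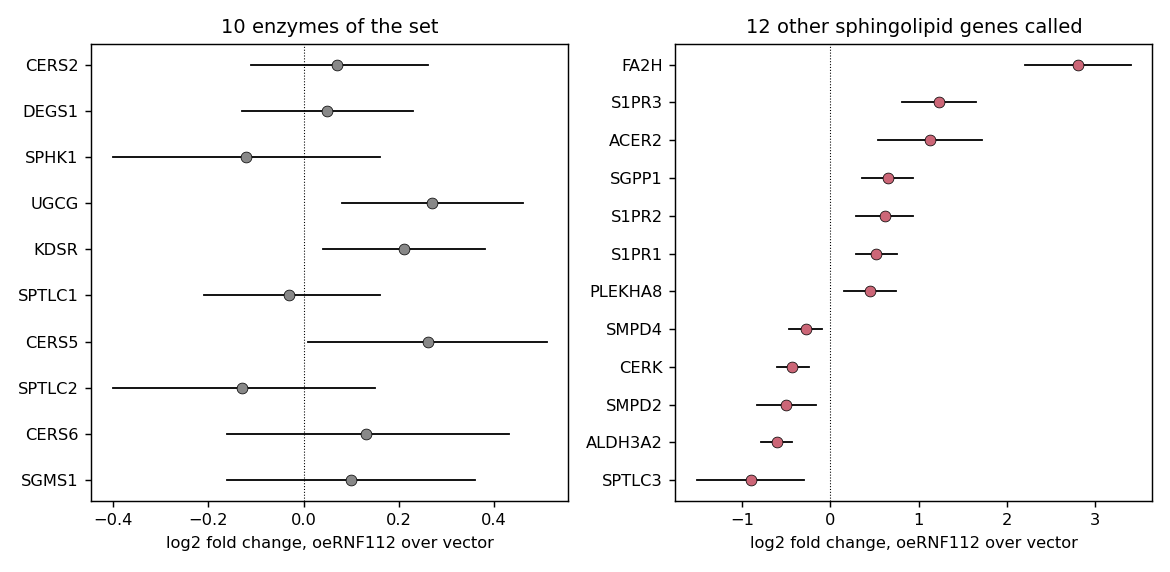
Log2 fold change of oeRNF112 over vector with its 95% interval from edgeR for the 10 enzymes (left, ordered by level) and for the 12 other sphingolipid genes with an adjusted p under 0.05 (right, ordered by change). The horizontal axes differ, and the intervals of KDSR, UGCG and CERS5 lie above 0 although none passed the adjusted threshold.

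Of 6 tested genes for S1P transport and receptors, 3 were called, all higher and all of them receptors, where 9.97% of all genes were called higher. The fourth receptor tested, S1PR5, was not called (log2 fold change -0.14, adjusted p = 0.61, overlapping groups). S1PR3, a G-protein-coupled receptor for S1P, had 85, 112 and 114 counts in vector and 228, 228 and 317 in oeRNF112, and rose 2.34-fold (1.75 to 3.14, adjusted p = 0.00258). S1PR1 had 571, 577 and 492 counts in vector and 833, 852 and 799 in oeRNF112, a 1.43-fold rise (1.22 to 1.68, adjusted p = 0.00833). The lowest oeRNF112 sample lay above the highest vector sample for both, as for S1PR2 below. Of the 65 genes tested in the wider list, 25 did not overlap between the groups, against 36.8% of all genes tested. S1PR2, at 128, 152 and 157 against 231, 244 and 233 counts, also rose, by 0.62 on the log2 scale (SE 0.147, adjusted p = 0.0186). The call of S1PR2 was lost without vector replicate 1 (adjusted p = 0.0765) or oeRNF112 replicate 1 (0.0616).

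Among the genes that make and remove S1P, 2 of 6 were called, in opposite directions, where 18.1% of all genes were called. SGPP1, a phosphatase that returns S1P to sphingosine, had 997, 1056 and 814 counts in vector and 1367, 1533 and 1861 in oeRNF112 (1.57-fold, 1.29 to 1.92, adjusted p = 0.00851). ALDH3A2, the fatty aldehyde dehydrogenase that oxidizes the aldehyde left by S1P lyase, had 4375, 4323 and 4172 counts in vector and 2911, 2900 and 3080 in oeRNF112. It fell to 0.653 of the vector level (0.579 to 0.737, adjusted p = 0.001), and its replicates were tight in both groups. ALDH3A2 also serves other lipid aldehydes.

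The ceramide synthases, desaturases and hydroxylase had 1 call among 7 tested genes, where 18.1% of all genes were called. All 7 had fitted changes above 0, as did 7294 of all 14467 genes, and the direction of the group was not tested. The call was FA2H, the fatty acid 2-hydroxylase that supplies hydroxylated chains to ceramide. It had 23, 18 and 15 counts in vector and 114, 125 and 176 in oeRNF112, a 6.96-fold rise (4.61 to 10.5, adjusted p = 0.000267), from a low level of 0.103 ± 0.021 RPKM to 0.771 ± 0.183 RPKM (SD, n = 3). CERS1 had 65, 60 and 51 counts in vector and 88, 122 and 87 in oeRNF112 (log2 fold change 0.68, adjusted p = 0.0627). Its reads cannot be told apart from those of GDF1, with which it shares a transcript. CERS1 passed with library totals in edgeR (log2 fold change 0.767, adjusted p = 0.0377). It also passed with limma on log2(RPKM + 1) (adjusted p = 0.0383) and on log2(RPKM + 0.1) (0.0428).

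Serine palmitoyltransferase and its regulators had 1 call among 8 tested genes, against 18.1% of all genes. Of the 8, 7 had fitted changes below 0, as did 7173 of all 14467 genes, and the direction of the group was not tested. SPTLC3, an alternative catalytic subunit, had 52, 63 and 43 counts in vector and 33, 24 and 32 in oeRNF112, a fall by 0.90 on the log2 scale (SE 0.27, adjusted p = 0.0444). That call did not hold when any 1 of the 6 samples was left out (adjusted p between 0.0538 and 0.125). The regulators, ORMDL1, ORMDL2, ORMDL3 and SPTSSA, were not called.

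Ceramide kinase, CERK, had 2784, 2993 and 2841 counts in vector and 2249, 2317 and 2216 in oeRNF112, and fell to 0.745 of the vector level (0.655 to 0.846, adjusted p = 0.00772). PLEKHA8, a glucosylceramide transfer protein, had 1100, 1416 and 974 counts in vector and 1645, 1523 and 1856 in oeRNF112 (log2 fold change 0.45, adjusted p = 0.0427). These were the 2 calls among 5 tested genes for ceramide transfer and phosphorylation, against 18.1% of all genes. PLEKHA8 has a near-identical copy, so its counts are uncertain, and its call was lost without vector replicate 1 (adjusted p = 0.157), vector replicate 3 (0.105), oeRNF112 replicate 1 (0.112) or oeRNF112 replicate 3 (0.133).

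The sphingomyelin genes had 2 calls among 8, against 18.1% of all genes called and 8.14% called lower. Both were lower, and both encode sphingomyelinases, which cleave sphingomyelin to ceramide. Another sphingomyelinase gene, SMPD1, was not called (log2 fold change 0.02, adjusted p = 0.916, overlapping groups). The related SMPDL3A (-0.19, adjusted p = 0.661) and SMPDL3B (-0.60, adjusted p = 0.0598) were not called either. SMPD2 had 319, 331 and 368 counts in vector and 240, 297 and 225 in oeRNF112 (log2 fold change -0.50, adjusted p = 0.0453). SMPD4 had 5149, 5960 and 5555 counts in vector and 4868, 4563 and 5072 in oeRNF112 (-0.28, adjusted p = 0.0486). Both calls lie at the edge of the threshold: SMPD4, which also has near-identical copies, lost it without any 1 of the 6 samples (adjusted p between 0.0901 and 0.143). SMPD2 lost it without vector replicate 1 (0.102), vector replicate 3 (0.113), oeRNF112 replicate 1 (0.147) or oeRNF112 replicate 3 (0.149). With library totals, the scaling under which KDSR, UGCG and CERS5 gained a call, SMPD2 (0.0795), SMPD4 (0.178) and SPTLC3 (0.0674) lost theirs. In the limma fit on log2(RPKM + 1) the adjusted p was 0.0777 for SMPD2, 0.164 for SMPD4, 0.105 for SPTLC3 and 0.0532 for PLEKHA8.

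Among the ceramidases, which cleave ceramide to sphingosine, ACER2 was the 1 call of 4 tested genes, against 18.1% of all genes. It had 29, 30 and 25 counts in vector and 55, 58 and 82 in oeRNF112 (log2 fold change 1.13, SE 0.263, adjusted p = 0.017). The call was lost without vector replicate 1 (adjusted p = 0.0613), vector replicate 3 (0.0511) or oeRNF112 replicate 3 (0.0835). None of the 10 tested genes for glycosphingolipid synthesis, UGCG among them, was called, against 18.1% of all genes, and 5 of them had an unadjusted p under 0.05, against 33.1%. Of the 11 genes reported for the breakdown of glycosphingolipids, 0 were called and 2 had an unadjusted p under 0.05, against the same shares of all genes.

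**Figure D4:**
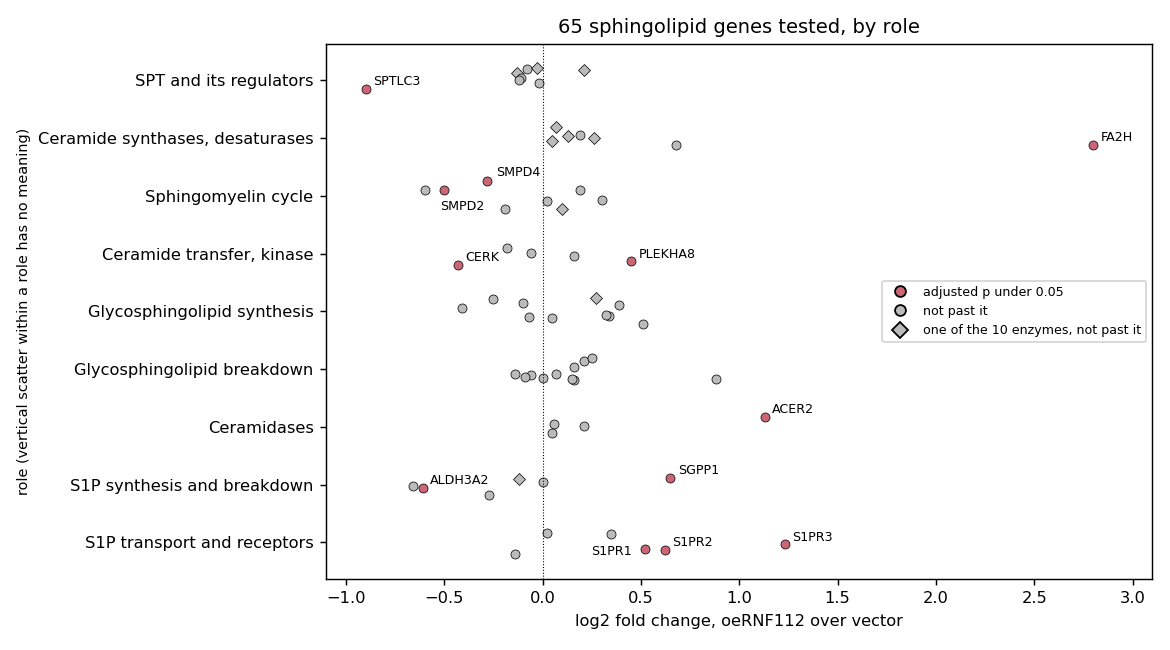
Log2 fold change of oeRNF112 over vector (horizontal axis) for the 65 sphingolipid genes tested, by role (vertical axis). Red points have an adjusted p under 0.05, gray points do not, and diamonds are the 10 enzymes. The diamonds lie between -0.13 and 0.27, and the called genes lie outside that range, from FA2H at 2.80 to SPTLC3 at -0.90.

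In bulk RNA, fewer cells expressing a gene and less RNA per cell cannot be told apart. Of 15 epithelial markers listed, 13 were counted and 9 tested, and 4 of the 9 were called, against 18.1% of all genes, with KRT7, KRT18 and FOXA1 lower and EPCAM higher. The summed RPKM of the 13 was 1957, 1813 and 2248 in vector and 1613, 1713 and 1475 in oeRNF112, led by KRT18. The 3 mesenchymal markers summed to 2199, 2089 and 2195 RPKM in vector and 2067, 2095 and 1770 RPKM in oeRNF112, led by VIM, and CDH2 was the 1 called among them, against 18.1% of all genes. Leukocyte markers were low. Those counted, 8 of 10, summed to 5.66, 5.99 and 4.66 RPKM in vector and 6.11, 3.27 and 3.46 in oeRNF112, led by LAPTM5. LAPTM5, lower in oeRNF112, was the 1 called of 6 leukocyte markers tested, against 18.1% of all genes. CD3E had 0 counts in 5 samples and 4 counts in oeRNF112 replicate 3, and LYZ had 97 counts in oeRNF112 replicate 1 and at most 8 in the other samples. The part of these differences in the sphingolipid results was not tested.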

How the data were processed

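RNA of 3 vector and 3 oeRNF112 samples was sequenced from libraries made with a kit labelled as stranded for mRNA. The authors deposited raw read counts for each gene, and RPKM values made from them. The submitters' processing notes name Trimmomatic 0.36, featureCounts, Subread 1.5.1 and GRCh38. The aligner, the annotation and whether counting used strand were not given in the sources used here. For 20637 of 20637 genes compared, RPKM equalled the count divided by the sample total and 1 gene length (relative tolerance 0.001), so both tables hold the same measurement. Total counts were 41259569, 40482655 and 40326143 in vector and 40029547, 40541536 and 40375330 in oeRNF112, and no 2 samples were copies.

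Counts were fitted in edgeR 4.0.16 (R 4.3.3) with filterByExpr, TMM factors and the quasi-likelihood test on the group, and adjusted p-values (Benjamini-Hochberg) covered all 14467 genes tested, with a threshold of 0.05. Standard errors were derived from the fold change and the F statistic. Shares and ratios used the deposited RPKM within a sample and exact two-sided permutation tests. Alternatives were DESeq2 1.42.0, its size factors in edgeR, library totals, 2 other filters on low counts, limma 3.58.1 on log2(RPKM + 1) or log2(RPKM + 0.1), a minimum mean RPKM of 1, a replicate block, each sample left out, and a loess trend with gene length removed (span 0.3). The scripts were tested on simulated data. Locations and promoters came from RefSeq, exon overlaps from GENCODE 29, both on GRCh38. RefSeq listed 12 starts for 9 of the enzymes, and the first was used.

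Named genes are RNF112, the 10 enzymes, all pathway genes past the threshold, the paralogues in a share or ratio, and leading or near-absent markers. S1PR5, SMPD1, SMPDL3A, SMPDL3B, the other called markers and the genes overlapping the enzymes were added to these names once their values had been seen. So were the genes not tested, the serine palmitoyltransferase regulators and the limit of 7 counts for markers. The enzymes and the lists were chosen with earlier results of these data known. One gene of the wider list is not reported here and was left out of its counts.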

Additional observations from a re-analysis of the deposited data

How the results depend on the processing

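The count of called enzymes, 0 of 10 by edgeR with TMM factors, was 3 with library totals and in each of the 3 limma fits on RPKM (KDSR, CERS5 and UGCG), 1 with DESeq2 (UGCG) and 1 with the length trend removed (SPTLC2), and 0 in the other settings. Their median log2 fold change, 0.09, was 0.181 with library totals, 0.16, 0.183 and 0.16 with limma (pseudocounts of 1 and 0.1, and mean RPKM of at least 1) and 0.00915 with the length trend removed, and lay between 0.0314 (without vector replicate 3) and 0.116 (without vector replicate 2) with 1 sample left out. The median of all genes moved with these settings, from 0.00267 to 0.0962 with library totals, 0.0582, 0.0925 and 0.0607 with limma, and -0.0635 with the length trend removed. Genes called over the whole table, 2620, numbered 4623 with the length trend removed and between 1061 (without vector replicate 1) and 3387 (without vector replicate 2) with 1 sample left out, with 1263 without oeRNF112 replicate 1 and 1446 without oeRNF112 replicate 3. Those higher lay between 702 and 1841, those lower between 359 and 1546, and the called genes of the wider list between 6 (without vector replicate 1) and 14 (without vector replicate 2), with 7 without vector replicate 3, oeRNF112 replicate 1 or oeRNF112 replicate 3. Genes called lower, 1178, were 659 with library totals, 669, 682 and 603 with limma in the same order, and 2947 with the length trend removed.

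Deviations from the group means of samples with the same replicate number correlated at -0.116, -0.363 and -0.296. Deviations within a group are tied to each other, so these values cannot tell whether samples with the same number were handled together. The labels give only the number. A replicate block left 876 genes called (618 higher, 258 lower), 6.06% of all genes tested, and 3 genes of the wider list. These 3 were FA2H, ALDH3A2 and S1PR3. Under the block S1PR1 had a log2 fold change of 0.522 (adjusted p = 0.0638), SGPP1 0.647 (0.051) and CERK -0.426 (0.0924). The values without the block were 0.52, 0.652 and -0.425. ACER2, S1PR2, PLEKHA8, SPTLC3, SMPD2 and SMPD4 also lost their calls under it.

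Of 427 values of named genes under alternatives, 350 kept their direction and side of the threshold, 50 lost a call (9 genes), 17 gained one (5 genes) and 10 turned sign (5 genes). SPTLC1 turned to 0.0671 with library totals, 0.064, 0.0669 and 0.064 with limma, 0.0132 without vector replicate 1 and 0.00967 without oeRNF112 replicate 1, with a lowest value of -0.0598 without vector replicate 3. CERS6 turned to -0.00521 and SGMS1 to -0.033 with the length trend removed, SPHK1 to 0.00981 without vector replicate 3 (lowest -0.204, without vector replicate 2), and SGMS2 to -0.007 without oeRNF112 replicate 3 (highest 0.338, without vector replicate 2). The median of all genes moved as given above in the settings without TMM factors and with the length trend removed. SPTLC1 lay below that median with library totals and with limma at a pseudocount of 0.1. It lay above the median, at 0.064 against 0.0582 and 0.0607, in the other limma fits. CERS6 and SGMS1 lay above the median of -0.0635 with the length trend removed. None of the turns is read as a change of these genes. The cause of the turns was not tested. Shares and ratios moved by less than the SD of replicates pooled over both groups, but some moved by more than the SD of 1 group. The difference in the log2 ratio of SPHK1 to SPHK2, 0.139, was 0.021 without oeRNF112 replicate 2. That in the CERS5 share, 1.65 percentage points, was 0.786 without vector replicate 2. The differences in the CERS6 share and in the ratios of SPTLC1 to SPTLC2 and SGMS1 to SGMS2 changed sign without some samples. The 10 enzymes had at least 1124 counts in every sample, and the effect of depth or of the number of replicates was not tested.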
